A study of Mus musculus with 6 samples.

Results

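Neutrophil granule transcripts are the messenger RNAs of proteins that neutrophils pack into granules or hold in large amounts in the cytosol. The set held 10 genes, Elane, Mpo, Prtn3, S100a8, S100a9, Ngp, Camp, Ltf, Mmp9 and Retnlg. All 10 symbols stood in the count table, on 10 of its 15458 rows. The members were chosen by earlier results on these same libraries, in which their levels differed within the control group, so the levels are given as a description and support nothing by themselves. The libraries were made from polyA RNA of Kupffer cells, the macrophages that live in the liver's blood vessels, sorted from livers of wild type C57BL/6 mice bearing Hepa1-6 tumours, a mouse hepatoma line. In the control group (KC_EV, n = 3) the tumour cells carried an empty vector, and in the other group (KC_Epo, n = 3) they overexpressed erythropoietin, the hormone of red cell formation. Livers were taken 18 days after implantation in both groups. The gate used for sorting is not given in the sources used here, and the labels number the mice without stating that every library is a different animal, so a p-value here measures spread among libraries, which may be technical.

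Neutrophils build their granules in sequence while they mature in the bone marrow. Azurophil granules with serine proteases and myeloperoxidase form first, at the promyelocyte stage, followed by specific granules with lactoferrin and cathelicidin and then by gelatinase granules. The granule messenger RNAs fall as the cell matures while the proteins stay, whereas S100a8 and S100a9 messages remain abundant in mature cells. Kupffer cells take up aged neutrophils in the liver.

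The libraries held between 23201076 and 33280754 counts. Kupffer cell markers were abundant in every library. Their summed level was 25317 to 27653 CPM (counts scaled to a common library size with TMM factors) in KC_EV and 40035 to 42964 CPM in KC_Epo. Of these 10 markers 8 rose and 1 fell, beside 16.9% and 15.4% of all tested genes. KC_EV 1 and KC_Epo 2 each stood apart in some genes. In KC_EV 1 57 of 13120 tested genes were at least 2-fold above each of the other 5 libraries (with 0.5 CPM added to every level, as in all such counts of genes), against 2 in KC_EV 2, 8 in KC_EV 3, 26 in KC_Epo 1 and 0 in KC_Epo 2 and in KC_Epo 3. One of them was Krt7, a keratin of bile duct epithelium, at 35.7 CPM against 3.68 and 4.28 CPM in KC_EV 2 and KC_EV 3. Of the 6 bile duct markers, Krt7 included, 3 were lower in KC_EV 1 than in both other control libraries. They were Krt19 (5.58 against 9.40 and 7.43 CPM), Sox9 (0.315 against 1.21 and 1.003 CPM) and Cldn7. Epcam was slightly higher there (2.93 against 2.78 and 1.92 CPM). Spp1 lay between the other control libraries (17.1 against 19.2 and 13.5 CPM). These bile duct genes were named after their values were seen. Genes at least 2-fold below each of the other 5 libraries numbered 49 in KC_Epo 2, 13 in KC_EV 1 and 0 to 4 in the others. Of the members, 0 were among the 49 and 7 were among the 13. Results on the members are given with and without KC_EV 1, where their low levels were already known. Leaving out KC_Epo 2 gave the same count of members called, 1 lower and 0 higher.

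Most of the set was high in KC_EV 2 and KC_EV 3, low in all 3 KC_Epo libraries and lower still in KC_EV 1. The summed level of the 10 members was 15.4, 178 and 332 CPM in KC_EV 1 to 3, and 38.9, 34.4 and 36.5 CPM in KC_Epo 1 to 3. The KC_Epo libraries lay close together, between KC_EV 1 and the other control libraries. Without Mmp9 the sum in KC_EV 1 was 4.82 CPM, from 153 counts, against 5061 and 10697 counts in KC_EV 2 and KC_EV 3. In sorted bulk material, fewer neutrophil-lineage cells and less of these messages per cell cannot be told apart.

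**Figure D1:**
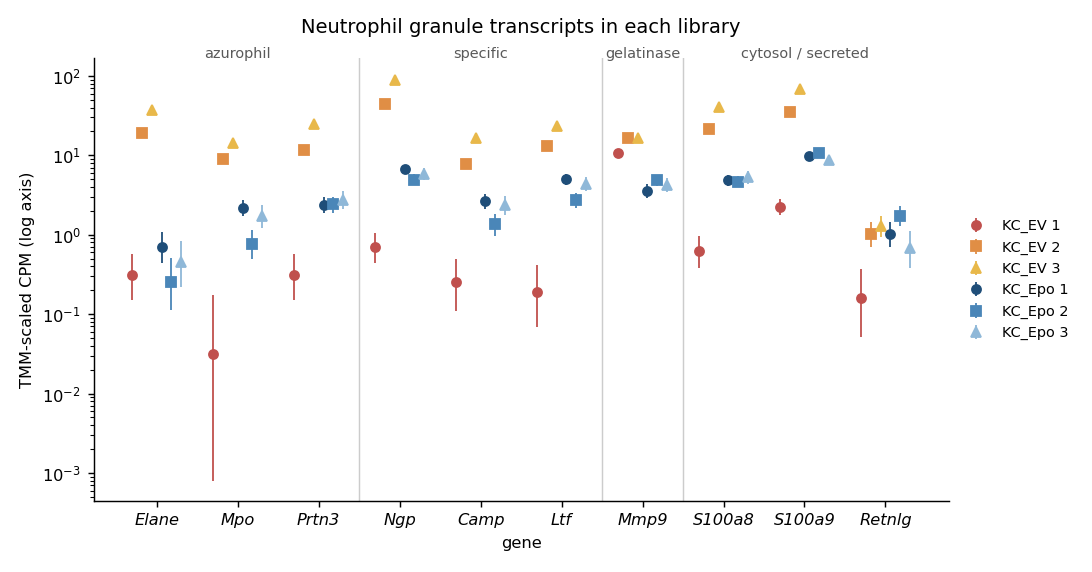
TMM-scaled CPM (log axis) of the 10 members in each of the 6 libraries, with exact 95% Poisson intervals of the counts. For Elane, Mpo, Prtn3, Ngp, Camp, Ltf, S100a8 and S100a9 the orange and yellow points (KC_EV 2 and 3) are the highest; the red point (KC_EV 1) is the lowest, except for Elane, where it lies among the blue KC_Epo points. Mmp9 is the member whose groups do not overlap.

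The azurophil members were near absent in KC_EV 1. Elane, neutrophil elastase, was at 0.315, 19.0 and 37.3 CPM in KC_EV 1 to 3 and at 0.707, 0.257 and 0.456 CPM in KC_Epo 1 to 3. Its lowest KC_Epo library lay below KC_EV 1, so that KC_EV 1 was within the KC_Epo range. Prtn3, proteinase 3, a serine protease encoded next to Elane, was at 0.315, 11.8 and 25.0 CPM in the controls and at 2.38, 2.41 and 2.73 CPM in KC_Epo. Here KC_EV 1 lay below every KC_Epo library. Mpo, myeloperoxidase, which makes hypochlorous acid, was at 0.0315, 9.08 and 14.4 CPM in the controls and at 2.19, 0.772 and 1.73 CPM in KC_Epo. The value in KC_EV 1 was a single count, with an exact 95% interval of 0.0253 to 5.57 counts.

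The stretches of 250 bases before the starts of Elane and Prtn3 are shown because these neighbouring protease genes rose by like ratios from KC_EV 2 to KC_EV 3 but held different shares of their summed counts in the KC_Epo libraries. They are RefSeq sequences of build GRCm38.p6, at chr10:79886062-79886311 (+ strand) for Elane and chr10:79879417-79879666 (+ strand) for Prtn3. The counts were made on another build, GRCm39, per the submitters' processing notes. Capitals mark GAGGAA, a core bound by PU.1-type factors, searched on both strands.
Elane: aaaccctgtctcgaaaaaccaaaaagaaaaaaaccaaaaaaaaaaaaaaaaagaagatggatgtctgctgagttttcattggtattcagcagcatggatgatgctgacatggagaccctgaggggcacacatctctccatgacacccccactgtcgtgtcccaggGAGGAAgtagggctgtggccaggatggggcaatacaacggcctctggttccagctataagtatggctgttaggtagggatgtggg
Prtn3: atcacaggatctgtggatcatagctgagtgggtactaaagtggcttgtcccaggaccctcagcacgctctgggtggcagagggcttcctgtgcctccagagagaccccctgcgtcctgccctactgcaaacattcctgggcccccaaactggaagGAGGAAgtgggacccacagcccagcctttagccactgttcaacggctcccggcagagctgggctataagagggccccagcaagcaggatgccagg
The match lay 85 to 80 bases before the start of Elane and 95 to 90 bases before that of Prtn3. It was present in 5 of the 9 members in the RefSeq promoter table and in 23.3% of all 32851 windows of that length. Mmp9 had no entry in the table.

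The specific granule members followed the same split of the control libraries. Ngp, neutrophilic granule protein, a relative of cathelicidin, was at 0.694, 44.1 and 89.5 CPM in KC_EV 1 to 3 and at 6.68, 4.92 and 5.79 CPM in KC_Epo 1 to 3. Ltf, lactoferrin, which binds iron, was at 0.189, 13.1 and 23.2 CPM in the controls and at 4.98, 2.74 and 4.33 CPM in KC_Epo. Camp, the precursor of the antimicrobial cathelicidin peptide, was at 0.252, 7.77 and 16.4 CPM in the controls and at 2.64, 1.35 and 2.37 CPM in KC_Epo. For these 3 genes every KC_Epo library lay above KC_EV 1 and below KC_EV 2. KC_EV 3 was at least 2-fold above each of the other 5 libraries for Ngp, Camp and Prtn3, 3 of the 10 members, a rule met by 0.061% of tested genes.

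The windows of Ngp and Ltf are shown because their levels followed the same order over the 6 libraries and because both hold the letters TTGCNNAA, a motif of C/EBP type, on 1 strand or the other. Capitals mark that motif and, in Ltf, also GAGGAA. They are RefSeq GRCm38.p6 sequences at chr9:110419558-110419807 (+ strand) and chr9:111019042-111019291 (+ strand).
Ngp: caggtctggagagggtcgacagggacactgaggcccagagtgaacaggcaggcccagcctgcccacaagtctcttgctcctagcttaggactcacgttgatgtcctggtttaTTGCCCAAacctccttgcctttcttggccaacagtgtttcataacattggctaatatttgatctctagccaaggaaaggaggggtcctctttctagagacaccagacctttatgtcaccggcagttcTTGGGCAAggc
Ltf: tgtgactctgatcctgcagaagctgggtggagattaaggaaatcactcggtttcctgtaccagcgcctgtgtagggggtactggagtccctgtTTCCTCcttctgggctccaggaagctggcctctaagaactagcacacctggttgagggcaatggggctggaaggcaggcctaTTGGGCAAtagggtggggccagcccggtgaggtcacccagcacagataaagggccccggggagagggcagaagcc
Ngp held matches 138 to 131 and 11 to 4 bases before its start, and Ltf held one 75 to 68 bases before its start. TTGCNNAA was present in 4 of 9 members (S100a9, Ngp, Ltf and Retnlg) and in 9.56% of all windows. The RUNX-type letters TGTGGT were present in 1 of 9 members, S100a9, and in 14% of windows, and TATAAA in 1 of 9, S100a8, and in 12.4%. The marked matches in the printed windows do not overlap each other, and a match is a description of these letters, not a bound site.

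The cytosolic calprotectin subunits followed the granule genes. S100a8 was at 0.631, 21.3 and 40.4 CPM in KC_EV 1 to 3 and at 4.88, 4.67 and 5.33 CPM in KC_Epo 1 to 3. Its partner S100a9, encoded next to it, was at 2.24, 34.7 and 68.2 CPM in the controls and at 9.83, 10.7 and 8.84 CPM in KC_Epo. Monocytes also make both messages. Retnlg, a secreted resistin-like protein of neutrophils, was at 0.158, 1.02 and 1.30 CPM in the controls and at 1.03, 1.74 and 0.684 CPM in KC_Epo. KC_EV 1 was lowest for Retnlg too, but KC_EV 2 and KC_EV 3 lay within the KC_Epo range.

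Mmp9, gelatinase B, a matrix protease of gelatinase granules that macrophages also make, had a different pattern. It was at 10.6, 16.3 and 16.4 CPM in KC_EV 1 to 3 and at 3.57, 4.86 and 4.24 CPM in KC_Epo 1 to 3. The groups did not overlap, as in 1 of the 10 members and in 24.2% of all tested genes with KC_Epo lower. KC_EV 1 was the lowest control library here as well, but by 1.54-fold against KC_EV 2, where the same ratio was 15.5-fold for S100a9 and 69.3-fold for Ltf.

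Apart from Mmp9 and Retnlg, which were set apart with the values known, the 8 remaining members were all higher in KC_EV 3 than in KC_EV 2. Their ratio of KC_EV 3 to KC_EV 2 ran from 1.59 for Mpo to 2.11 for Camp. It was 1.006 for Mmp9 and 1.27 for Retnlg. KC_EV 1 was at least 4-fold below both other control libraries for these 8 members, a rule met by 15 genes, or 0.114% of the 13120 tested, and by 0 genes for KC_EV 2 or KC_EV 3 in the same role. Named after their values were seen, the other genes that met it were Ctsg, Lcn2, Ms4a3, Myb, Olfm4, Penk and Rab44. KC_EV 1 was at least 2-fold below each of the other 5 libraries in 13 genes, 0.0991% of those tested, of which 7 were members (Mpo, Prtn3, S100a8, S100a9, Ngp, Camp and Ltf). The full order of KC_EV 3 above KC_EV 2, then every KC_Epo library, then KC_EV 1 was found in 92 genes, 0.701% of those tested, and in the same 7 members. The members were known to differ within KC_EV when they were chosen, so nothing is read from these shares.

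Between the groups, 1 of the 10 members fell in KC_Epo and 0 rose by the edgeR quasi-likelihood test at an adjusted p of 0.05, where 15.4% of the tested genes fell and 16.9% rose. Mmp9 fell by 1.77 on the log2 scale (SE 0.20, edgeR adjusted p = 5.72e-05). Elane had a log2 change of -5.30 ± 1.85 (SE, edgeR adjusted p = 0.101), and it was the further member at an unadjusted p under 0.05, where 2 members were lower and 0 were higher. By DESeq2 2 members were lower, Elane and Mmp9, and 0 were higher. For the 8 members other than Mmp9 and Retnlg the values ran from -5.30 for Elane to -1.60 for Ltf, with standard errors of 1.18 to 1.85 and adjusted p values of 0.101 to 0.446. Retnlg was at 0.48 ± 0.64 (SE, edgeR adjusted p = 0.602). The median over the 10 members was -2.01, beside -0.0045 over all genes tested.

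Without KC_EV 1 the same fit placed 9 of the 10 members lower in KC_Epo and 0 higher, where 12.9% of the 13328 genes then tested fell. The values of the 8 members moved to between -5.87 and -2.18, and their standard errors narrowed to 0.27 to 0.46. Their edgeR adjusted p values were 0.000747 to 0.0071 in that fit, and 0.0865 to 0.788 over the other 11 edgeR alternatives. Retnlg was at 0.0023 ± 0.49 (SE, edgeR adjusted p = 0.998). KC_EV 1 was known to be low for these genes, so the 9 calls describe the remaining 5 libraries and are not independent evidence of a group difference.

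**Figure D2:**
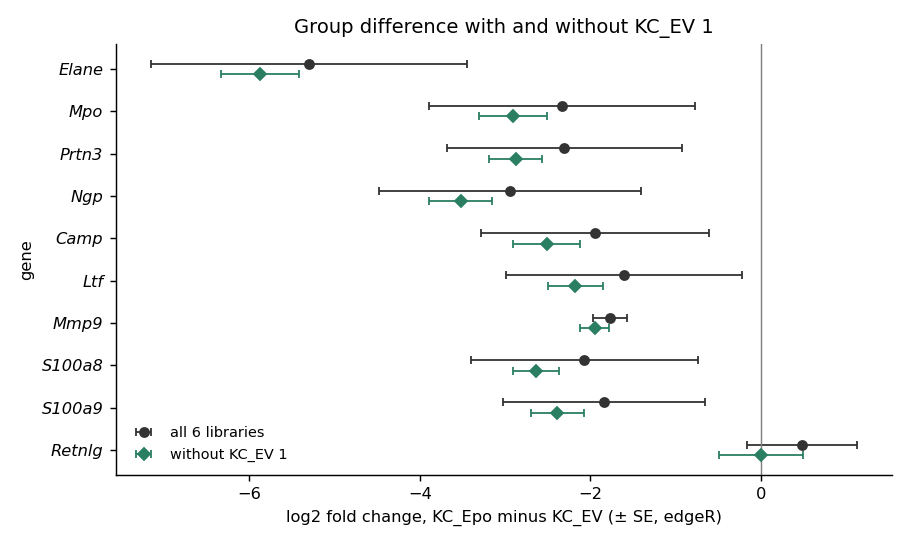
Log2 fold changes of KC_Epo minus KC_EV with standard errors for the 10 members, from edgeR on all 6 libraries (circles) and without KC_EV 1 (diamonds). For 8 members the bars shrink from 1.18 to 1.85 down to 0.27 to 0.46, while Mmp9 is at -1.77 and -1.95 and Retnlg at 0.48 and 0.0023.

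The mixture of messages within the set also differed between libraries, a comparison chosen after the values were seen. Of the counts of the 9 members other than Mmp9, the azurophil genes Elane, Mpo and Prtn3 held 24.6% in KC_EV 2 (exact 95% interval 23.5 to 25.9) and 24.3% in KC_EV 3 (23.5 to 25.1). Their share was 14.9% (12.9 to 17.2), 11.6% (9.64 to 13.9) and 15.3% (12.7 to 18.1) in KC_Epo 1 to 3, and 13.7% (8.70 to 20.2) in KC_EV 1. This share in KC_EV 1 was within the KC_Epo range. Elane supplied 593 of 1247 and 1264 of 2598 azurophil counts in KC_EV 2 and KC_EV 3. In KC_Epo 1 to 3 it supplied 22 of 164, 8 of 107 and 10 of 108, so the lower share in KC_Epo was largely that of Elane. The 21 azurophil counts in KC_EV 1 were 10 of Elane, 1 of Mpo and 10 of Prtn3, so its like share had another make-up. The specific granule genes Ngp, Camp and Ltf held 23.5% (17.1 to 31.1) in KC_EV 1, the lowest value, although its interval overlaps that of KC_Epo 2 (27.5 to 33.6), with 40.1% and 40.9% in KC_EV 2 and KC_EV 3 and 40.5%, 30.5% and 38.7% in KC_Epo 1 to 3. S100a8, S100a9 and Retnlg held 62.7% (54.6 to 70.4) in KC_EV 1, 35.2% and 34.8% in KC_EV 2 and KC_EV 3, and 44.6%, 57.9% and 46.0% in KC_Epo 1 to 3. The intervals cover counting error only.

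Elane and Prtn3 shifted against each other. Elane supplied 50% (exact 95% interval 27.2 to 72.8), 61.6% (58.4 to 64.7) and 59.9% (57.78 to 62.01) of the summed Elane and Prtn3 counts in KC_EV 1 to 3. In KC_Epo 1 to 3 it supplied 22.9% (15.0 to 32.6), 9.64% (4.25 to 18.1) and 14.3% (7.07 to 24.7). All 3 control libraries lay above all 3 KC_Epo libraries, although KC_EV 1 rests on 20 counts and its interval overlaps that of KC_Epo 1. No test was made, since these shares were chosen after the values were seen.

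**Figure D3:**
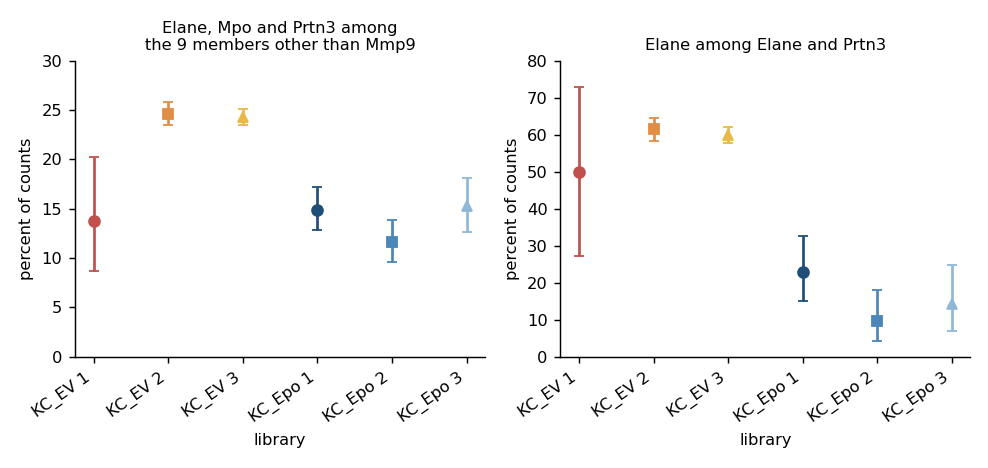
Share of counts in each library, in percent with exact 95% binomial intervals: left, Elane, Mpo and Prtn3 among the 9 members other than Mmp9; right, Elane among Elane and Prtn3. On the left KC_EV 2 and 3 (24.6% and 24.3%) lie above the other 4 libraries, and on the right the KC_Epo libraries (9.64% to 22.9%) lie below the control libraries. The Elane counts enter both panels.

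Other granule genes showed which parts of the program varied within KC_EV. Ctsg, cathepsin G of azurophil granules, was at 0.347, 4.28 and 9.35 CPM in KC_EV 1 to 3 and at 0.643, 0.322 and 0.547 CPM in KC_Epo 1 to 3. Ms4a3, a membrane protein of granulocyte-monocyte progenitors placed in the azurophil list, was at 0, 2.37 and 4.43 CPM in the controls. It was at 0.353, 0 and 0.228 CPM in KC_Epo. KC_EV 1 was at least 2-fold below both other control libraries in 2 of 3 azurophil list genes outside the set, Ctsg and Ms4a3. The same held in 4 of 7 specific granule genes outside the set, Lcn2, Cd177, Olfm4 and, named after its values were seen, Fcnb. Of all tested genes 0.389% met this rule. Olfm4, olfactomedin 4 of specific granules, was at 0.252, 6.43 and 8.32 CPM in the controls and at 0.386, 0.0322 and 0.319 CPM in KC_Epo. Cd177, a neutrophil surface protein, was at 2.77, 10.7 and 21.1 CPM in the controls and at 3.18, 1.87 and 2.05 CPM in KC_Epo. These genes had the same split of the control libraries as Elane.

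In the between-group fit, 0 of 2 tested azurophil list genes outside the set, Ctsg and Ms4a3, passed the edgeR test. At an unadjusted p under 0.05, 1 of them was lower. DESeq2, run on all genes, called 2 of 3 such genes lower, Ctsg included, while Ms4a3 did not pass (DESeq2 adjusted p = 0.276). Without KC_EV 1 Ctsg and Ms4a3 both fell, with Ctsg at -3.75 (edgeR adjusted p = 0.000699, and 0.28 at most over its alternatives). Of 6 tested specific granule genes outside the set 1 rose and 0 fell, beside 16.9% and 15.4% of all tested genes. At an unadjusted p under 0.05, 2 were higher and 2 lower, and also by DESeq2. The riser was Ifitm6, an interferon-induced transmembrane family member, at 0.30 ± 0.10 (SE, edgeR adjusted p = 0.0353), a call lost with library sizes only, upper-quartile factors or the replicate block, and when any library other than KC_Epo 3 was left out (edgeR adjusted p up to 0.265). Wfdc21 was at 0.93 ± 0.34 (SE, edgeR adjusted p = 0.0582) and passed as higher by DESeq2 (DESeq2 adjusted p = 0.0325). Without KC_EV 1, 3 of 7 tested specific granule genes outside the set fell and 0 rose, where 12.9% of all tested genes fell. Lcn2, lipocalin 2, which binds bacterial siderophores and which hepatocytes also make, went another way, at 0.883, 8.09 and 18.2 CPM in the controls and at 30.6, 15.9 and 20.7 CPM in KC_Epo (log2 fold change 1.31 ± 1.01, edgeR adjusted p = 0.397). It shared the low value in KC_EV 1 but not the lower KC_Epo levels, and the summed hepatocyte markers were 2202 to 2709 CPM in the controls and 4896 to 17047 CPM in KC_Epo, where 6 of 10 rose; their part in the Lcn2 level was not tested.

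The tested genes of mature neutrophils outside the set had a smaller difference within KC_EV than S100a8 and S100a9. Of the 18 mature neutrophil genes in the table, S100a8, S100a9 and Retnlg included, 14 were lower in KC_EV 1 than in both other control libraries. Of the 15 outside the set, 0 were at least 2-fold lower in KC_EV 1 than in both other control libraries. The surface markers Ly6g and Cxcr2, named after their values were seen, had 0, 26 and 13 counts and 3, 16 and 3 counts in KC_EV 1 to 3, and 0, 0 and 4 and 0, 4 and 6 counts in KC_Epo 1 to 3. Stfa2l1 and Stfa3, also named after their values were seen, had 0, 6 and 6 counts and 0, 1 and 0 counts in KC_EV 1 to 3. In KC_Epo 1 to 3 they had 8, 8 and 0 and 4, 27 and 0 counts. None of these genes passed the filter on low counts, and the 0.5 CPM added in the 2-fold rule is large beside most of their levels. The rule therefore says little on them. A count of 0 allows up to 3 counts as an upper 95% bound. Csf3r, the receptor of the granulocyte growth factor G-CSF, which macrophages also express, was at 247, 243 and 260 CPM in the controls and at 300.2, 242 and 263 CPM in KC_Epo. Its log2 fold change was 0.10 ± 0.08 (SE, edgeR adjusted p = 0.377) and turned to -0.05 with library sizes only.

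**Figure D4:**
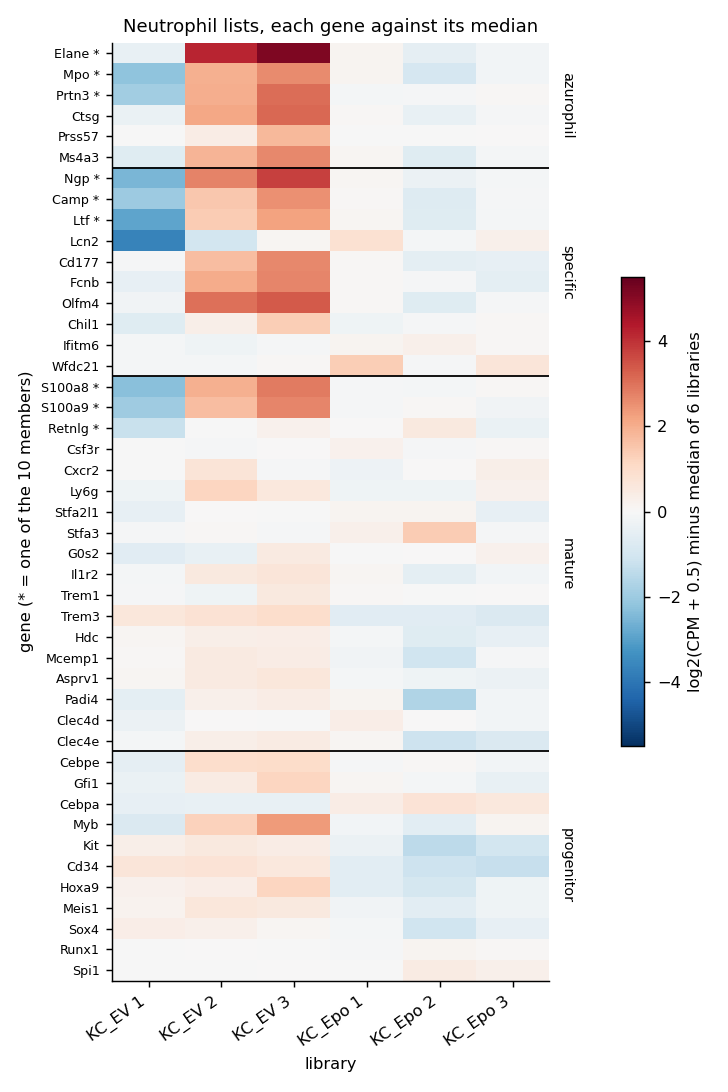
Difference of log2(CPM + 0.5) from each gene's median over the 6 libraries, for azurophil, specific, mature neutrophil and progenitor genes; stars mark the members. Red in KC_EV 2 and KC_EV 3 runs through the azurophil block, most of the specific block and S100a8 and S100a9, and is faint in the other mature genes.

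Between the groups 3 of 11 tested mature neutrophil genes outside the set fell and 0 rose, beside 15.4% and 16.9% of all tested genes. At an unadjusted p under 0.05, 6 were lower and 0 higher. DESeq2, run on all genes of the list in the table, gave 3 lower and 1 higher. Trem3, an activating receptor of myeloid cells, fell by 1.63 on the log2 scale (SE 0.20, edgeR adjusted p = 9.28e-05), and KC_EV 1 was at 7.63 CPM beside 8.79 and 10.002 CPM in the other control libraries. Hdc, which makes histamine, was at -0.69 ± 0.15 (SE, edgeR adjusted p = 0.00402). Mcemp1, a mast cell and neutrophil membrane protein, was at -0.82 ± 0.28 (SE, edgeR adjusted p = 0.0451), a call lost without KC_EV 1, KC_EV 2, KC_EV 3 or KC_Epo 2 and with the replicate block, with adjusted p up to 0.146. Asprv1 was at -1.25 ± 0.54 (SE, edgeR adjusted p = 0.0923). Of 8 tested gelatinase granule and secretory vesicle genes outside the set 4 fell and 0 rose, beside the same shares of all tested genes. At an unadjusted p under 0.05, 4 were lower and 1 higher, and by DESeq2 4 were lower and 2 higher. Fpr2 and Fpr1, receptors for formyl peptides, were at -1.23 ± 0.10 and -0.67 ± 0.09, and Adam8, a membrane protease, was at -1.23 ± 0.18 (SE; edgeR adjusted p = 4.50e-06, 0.000175 and 0.000709). Like Mmp9 and 24.2% of all tested genes, these 3 genes had no overlap between groups, with KC_Epo lower. Macrophages express them too. Qsox1, of the same list, was at 0.79 ± 0.31 (SE, edgeR adjusted p = 0.126) and passed as higher by DESeq2 (DESeq2 adjusted p = 0.0491).

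Genes of granulocyte progenitors divided. Myb, a transcription factor of blood progenitors, was at 0.977, 5.499 and 12.2 CPM in KC_EV 1 to 3 and at 1.80, 1.19 and 2.28 CPM in KC_Epo 1 to 3, and Cebpe, needed for specific granules, was at 0.0315, 0.959 and 1.03 CPM in the controls and at 0.225, 0.290 and 0.182 CPM in KC_Epo. These were the 2 of 11 progenitor genes at least 2-fold lower in KC_EV 1 than in both other control libraries, named after their values were seen. Of 10 tested progenitor genes 5 fell and 1 rose, with 5 lower and 2 higher both at an unadjusted p under 0.05 and by DESeq2, beside 15.4% and 16.9% of all genes. Cd34, a surface protein of progenitors and endothelium, fell by 1.80 on the log2 scale (SE 0.24, edgeR adjusted p = 0.000167) with 8.70, 9.21 and 8.26 CPM in KC_EV, while the summed sinusoidal endothelial markers were 3859 to 4645 CPM in the controls and 1479 to 2243 CPM in KC_Epo and 8 of 10 fell; their part in the Cd34 level was not tested. Meis1, a progenitor transcription factor that endothelium also expresses, was at -0.83 ± 0.16 (SE, edgeR adjusted p = 0.00197). Hoxa9, at -2.59 ± 0.72 (adjusted p = 0.0167), lost its call without KC_EV 3, and Kit, the stem cell factor receptor, at -1.28 ± 0.32 (adjusted p = 0.0429), lost it without KC_EV 1, KC_EV 2, KC_EV 3 or KC_Epo 3, with the replicate block and with no filter (edgeR adjusted p up to 0.105 and 0.137). Cebpa, a transcription factor of granulocytes, monocytes and hepatocytes, rose by 1.00 ± 0.09 (SE, edgeR adjusted p = 7.84e-06). Spi1 was at 0.26 ± 0.10 (SE, edgeR adjusted p = 0.076) and passed as higher by DESeq2 and in edgeR without KC_Epo 1.

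Inhibitors of the granule proteases moved in both directions. Of 12 tested genes 3 fell and 1 rose, with 3 lower and 4 higher both at an unadjusted p under 0.05 and by DESeq2, beside 15.4% and 16.9% of all genes. Serpinb1a, an intracellular inhibitor of elastase, cathepsin G and proteinase 3, was at 8.92, 12.6 and 14.7 CPM in KC_EV 1 to 3 and at 1.83, 3.06 and 2.87 CPM in KC_Epo 1 to 3, a log2 change of -2.23 ± 0.25 (SE, edgeR adjusted p = 4.92e-05). Timp3, a tissue inhibitor of metalloproteases, was at -1.66 ± 0.25 (SE, edgeR adjusted p = 0.00609). Slpi, a secreted elastase inhibitor, was at -0.83 ± 0.23 (edgeR adjusted p = 0.0151), a call lost without KC_EV 3 or KC_Epo 3 (adjusted p up to 0.0952). Serpina3n rose by 2.82 ± 0.44 (SE, edgeR adjusted p = 0.0122), a call lost without KC_EV 2 or KC_EV 3 and with the replicate block (adjusted p up to 0.0555). Serpina3n and the Serpina1 genes are made by hepatocytes, the Serpina1 copies are near-identical and can share reads, and 0 of the 5 Serpina1 genes passed, with Serpina1d at 1.71 ± 0.46 (edgeR adjusted p = 0.0544). Serpina1b and Serpina1d passed by DESeq2, and Serpina1b, Serpina1c and Serpina1d passed in edgeR without KC_Epo 2.

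**Figure D5:**
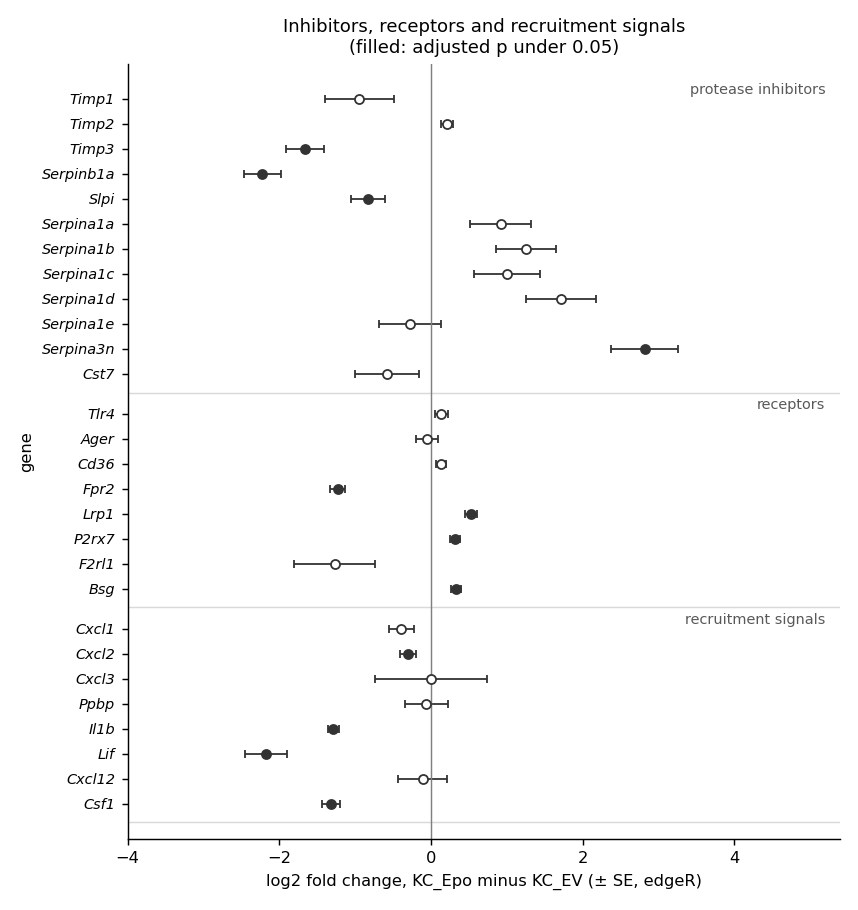
Log2 fold changes of KC_Epo minus KC_EV with standard errors (edgeR, all 6 libraries) for the tested protease inhibitors, receptors and recruitment signals. Filled points have an adjusted p under 0.05, among them Serpinb1a at -2.23 and Lif at -2.18 on the left and Serpina3n at 2.82 on the right.

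Of 8 tested receptors for granule proteins 3 rose and 1 fell, beside 16.9% and 15.4% of all tested genes. At an unadjusted p under 0.05, 3 were higher and 2 lower, and by DESeq2 3 were higher and 1 lower. Fpr2, which also binds the cathelicidin peptide, was the one that fell, at 332, 257 and 276 CPM in KC_EV 1 to 3 and at 113, 128 and 127 CPM in KC_Epo 1 to 3. Lrp1, an endocytic receptor for lactoferrin and for protease-inhibitor complexes, rose by 0.53 ± 0.08 (SE, edgeR adjusted p = 0.000329). P2rx7, an ATP-gated channel, and Bsg, a receptor of S100a9, were at 0.32 ± 0.06 and 0.33 ± 0.07, calls lost with library sizes only (edgeR adjusted p = 0.0695 and 0.0568), where the median of all genes moved from -0.0045 to -0.16. Of 8 tested recruitment and growth signals 4 fell and 0 rose, where 15.4% of all tested genes fell and 16.9% rose. At an unadjusted p under 0.05, 5 were lower and 0 higher, and by DESeq2 4 were lower and 0 higher. Il1b, which drives neutrophil recruitment, was at -1.29 ± 0.07, Csf1, the macrophage growth factor, at -1.32 ± 0.12 and Lif, a cytokine, at -2.18 ± 0.28 (SE; edgeR adjusted p = 3.38e-07, 9.22e-06 and 0.000116). Cxcl2, a neutrophil attractant, was at 69.8, 72.5 and 79.5 CPM in the controls and 49.9, 67.7 and 61.7 CPM in KC_Epo, and its call (edgeR adjusted p = 0.0445) was lost when any library other than KC_Epo 2 was left out (adjusted p up to 0.163). Cxcl1 was at -0.39 ± 0.16 (SE, edgeR adjusted p = 0.0867) and passed as lower with library sizes only and without KC_EV 1. The lists of inhibitors, receptors and recruitment signals had 0 genes at least 2-fold lower in KC_EV 1 than in both other control libraries.

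Among markers of other white cells, a low level in KC_EV 1 at the 2-fold rule was found for Chil3. Of 9 monocyte markers 1 was at least 2-fold lower in KC_EV 1 than in both other control libraries, Chil3, a chitinase-like protein also made by neutrophil precursors, at 14.8, 39.5 and 68.2 CPM in the controls and at 59.2, 25.4 and 38.2 CPM in KC_Epo (named after its values were seen). Between the groups 4 of the 9 monocyte markers were higher and 2 lower, beside 16.9% and 15.4% of all tested genes. The monocyte markers summed to 537 to 697 CPM in KC_EV and to 892 to 1793 CPM in KC_Epo. Much of that sum was Hp, haptoglobin, which hepatocytes also make, at 99.7, 137 and 145 CPM in KC_EV 1 to 3 and at 1081, 394 and 683 CPM in KC_Epo 1 to 3. The 2 that fell were F13a1, coagulation factor XIII A, at -0.89 ± 0.12, and Ccr2, the chemokine receptor of classical monocytes, at -0.78 ± 0.18 (SE; edgeR adjusted p = 0.000153 and 0.0124). Of 7 eosinophil markers 3 stood in the table: Ccr3, a chemokine receptor, was at 7.48 to 11.7 CPM in the controls and 28.2 to 49.6 CPM in KC_Epo, Il5ra, a receptor chain for interleukin 5, at 0.441 to 1.09 and 0.365 to 0.869 CPM, and Prg2 at 0 to 0.148 and 0.0644 to 0.193 CPM. Of the 8 basophil and mast cell markers Gata2, a transcription factor that endothelium also expresses, supplied most of the sum, at 9.56 to 12.9 CPM in the controls and 3.42 to 6.27 CPM in KC_Epo, and the others were at most at 0.775 CPM (Mcpt8) in any library. The monocyte, eosinophil and basophil genes given here singly were named after their values were seen. In the other marker lists 0 genes were 2-fold lower in KC_EV 1 than in both other control libraries.

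Among 11989 genes outside the set with a mean of at least 1 CPM, those most like the mean standardised profile of the members over the 6 libraries were Sh2b1 (Pearson r = 0.995), Sdccag3 (0.984), Rasal1 (0.982), Alad (0.982), Rab44 (0.978), Lag3 (0.977), Arsb (0.974), Ager (0.973), Fam129c (0.972) and Plk3 (0.970). The 6 points share these libraries, and r takes no account of size. Sh2b1, an adaptor protein, ran from 69.5 CPM in KC_EV 1 to 86.3 CPM in KC_EV 3. Rab44, a large Rab GTPase, was at 1.42, 8.86 and 13.96 CPM in KC_EV 1 to 3 and at 3.37, 2.06 and 2.92 CPM in KC_Epo 1 to 3, a range nearer to that of the members. By the same measure the members themselves ran from 0.568 for Mmp9 and 0.624 for Retnlg to 0.999 for Ngp.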

How the data were processed

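The deposited table holds raw read counts per gene symbol for the 6 libraries, which the authors did not normalize. Per the labels' protocols, libraries were made with a stranded mRNA kit. Tools listed in the submitters' processing notes, without roles, are HTSeq 0.11.2, STAR 2.7.3a, Bowtie2 2.5.1 and FastQC 0.11.8, with build GRCm39; how reads were assigned to strands is not stated there. A symbol on 2 rows (12 cases) stayed with the larger row. Tests used edgeR 4.0.16 under R 4.3.3 (TMM, filterByExpr, robust quasi-likelihood F test, two-sided, Benjamini-Hochberg over 13120 genes, threshold 0.05, no block). A check on simulated data gave all genes the same dispersion and had no outlying library. It therefore does not cover genes that spread as the members do within KC_EV. Standard errors came from the F statistic. All 10 members passed the filter. Alternatives were other size factors and filters, DESeq2 1.42.0, a replicate block and each library left out. Ratios between libraries used CPM, with 0.5 CPM added for counts of genes past a fold. The members and lists were chosen with earlier results of these data known. Named list genes were the 4 with the smallest adjusted p and the 4 with the highest mean CPM per list. Those named for likeness had the 10 highest r. Other genes named are marked, as were the single-library low rule, the within-KC_EV rules and the count shares, which were added after the values were seen. Library pairs within a group differed by more than counting noise (chi-square per gene 6.12 to 83.6, the highest for KC_Epo 1 against KC_Epo 2). Intervals (two-sided) and floors (3 counts, an upper 95% bound) cover counting error only.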

Additional observations from a re-analysis of the deposited data

How the results depend on the processing

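No member changed direction under any alternative run, and Mmp9 kept its call in all 13. Leaving out 1 library gave 1 to 9 members lower, 1477 to 2410 genes higher and 1251 to 2147 lower, against 2219 and 2015 with all libraries. The 9 came without KC_EV 1, and the lowest gene counts without KC_Epo 3. DESeq2 called 2 members lower. With library sizes only, 1193 genes were higher and 3616 lower, so 24.8% of calls were higher in place of 52.4% (upper-quartile factors gave 40.6%), and the members in KC_Epo 2 summed to 32.2 CPM in place of 34.4. With library sizes only, values that did not pass turned to -0.063 for Itgam, -0.054 for Csf3r, -0.10 for Runx1 and -0.023 for Cd36, and Runx1 was at -0.0021 with upper-quartile factors. Leaving out 1 library gave -0.15 (without KC_Epo 1) to 0.25 for Itgam and -0.70 to 0.019 (without KC_Epo 2) for Serpina1e. Elane could not be tested with a filter of 1 CPM in 3 libraries.

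At a fold of 4, genes high in 1 library numbered 21 in KC_EV 1 and 0 in KC_EV 2, KC_EV 3 and KC_Epo 1, and genes low in KC_EV 1 numbered 4. With 0.1 CPM added, genes high in 1 library numbered 13 in KC_EV 2, 17 in KC_EV 3, 43 in KC_Epo 1, 4 in KC_Epo 2 and 5 in KC_Epo 3, and genes low in KC_EV 1 numbered 46. With library sizes only, 4 genes were high in KC_EV 2. The cause of these shifts was not tested.

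With the replicate block 1800 genes were higher, 1558 lower and 1 member lower. Libraries with the same number did not deviate together (correlations of -0.12, -0.18 and -0.03 for numbers 1, 2 and 3). No pairing by number was seen in these values, which cannot show that none exists. The low counts in KC_EV 1, 1 to 71 for the members other than Mmp9, limit every ratio to that library.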
